A study of Mus musculus with 6 samples.

Results

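The genes described here are the alpha subunits of the hypoxia-inducible factors (HIFs), *Hif1a* and *Epas1*, and 8 genes known as HIF targets outside glycolysis, *Vegfa*, *Adm*, *Egln1*, *Egln3*, *Bnip3*, *Ankrd37*, *Ndrg1* and *Ddit4*. They were picked by symbol, as 10 of the 25140 genes in the deposited count table, from a set drawn up with their TGFβ response in these libraries already known. Their fold changes between vehicle and TGFβ are therefore a description, and no p is given for them. The lists of further genes below were also chosen with earlier results of these data known. Most genes named from them were picked for being called with the largest changes. Their counts and adjusted p thus describe these libraries and are no independent test.

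A HIF is a transcription factor made of an oxygen-regulated alpha subunit and the constitutive partner ARNT. In the presence of oxygen the EGLN prolyl hydroxylases mark the alpha subunit for the VHL ubiquitin ligase, so HIF activity is set largely at the protein level, and the mRNA of *Hif1a* or *Epas1* is no measure of it. When the alpha subunit is spared, the dimer binds short hypoxia response elements and switches on genes for angiogenesis, vascular tone, mitophagy, growth restraint and feedback on oxygen sensing, and several of these genes also answer to other stress and hormone pathways.

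The study examined the transcription that goes with the change of fibroblasts into myofibroblasts. The labels describe primary cardiac fibroblasts of adult C57BL/6 mouse heart at passage 1, grown in medium with 25 mM glucose and 10% serum and moved to 1% serum for 16 h. The study's results text speaks of mouse embryonic fibroblasts instead, and its methods of cardiac fibroblasts. For all experiments those methods give 1% serum from 24 h before the treatment and throughout it, not 16 h. RNA was taken from 3 samples given vehicle and 3 given TGFβ at 10 ng/mL for 24 h, and no label names a genetic change or a change of oxygen in either group. The libraries are called vehicle A, B and C and TGFβ A, B and C here, in the order of the table's columns, whose names carry no replicate number. They held 27851677 to 31072338 counts. The study's methods speak of 3 biological replicates, and neither they nor the labels say whether these came from separate animals. The sample titles number the replicates alike in both groups, but no label says that equal numbers share a culture or animal. Columns of the same letter deviated from their group means together, although no label pairs them. A fit with the letter as a block was therefore added after seeing the data, and it is named below where it changes a call. Leaving out libraries C of both groups was also chosen after seeing the data.

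The labelled cell type was checked against 10 fibroblast markers, all of which were expressed. Their summed level was 49902 to 63310 CPM (read counts scaled to a common library size) per library. With TGFβ 8 of them were called lower, at an adjusted p under 0.05 in edgeR. *Tcf21*, a transcription factor of the cardiac fibroblast lineage, was expressed at 303 ± 3.54 CPM in the vehicle group and 147 ± 2.05 CPM in the TGFβ group (mean ± SD, n = 3). Of 8 textbook TGFβ-induced genes 6 passed the same threshold, all higher, while *Smad7* and *Col1a1* did not. For both counts, 40.7% of all genes tested were called, 20.5% higher and 20.1% lower. Markers of pericytes summed to 1410 to 1502 CPM, of endothelial cells to 449 to 774 CPM and of leukocytes to 224 to 373 CPM. Those of cardiomyocytes summed to 27.6 to 60.3 CPM, and 7 of the 10 cardiomyocyte markers were too low to test. No listed marker was at 0 in all libraries, and *Cd3e* was not among the table's symbols. The endothelial and leukocyte sums were highest in library C of both groups, and so, by little, were the pericyte sums.

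The DNA around the start sites was searched for the letters that a HIF reads. RefSeq promoter windows (GRCm38.p6, 250 bases before to 50 after each start) were at hand for 8 of the 10 genes, and none was used for *Epas1* or *Ndrg1*. There were 9 windows because *Vegfa* has a pair, the first at the 5′ end of the gene and the second at a start inside it. The windows of *Hif1a* (chr12:73907617-73907916) and *Ankrd37* (chr8:45999801-46000100) also lie inside the spans of their genes, away from the 5′ ends at 73901375 and 46005707. The core letters ACGTG, searched on both strands, occurred in 7 of the 9 windows and in 19.6% of all 32851 windows of this length. The other core, GCGTG, occurred in 6 of the 9 and in 32.4% of all windows, and 1 or the other in 8 of 9 and in 43.8%. The first *Vegfa* window, which held neither, is the exception. The windows of these genes were rich in G and C, with a median of 69.0% against 52.7% for all windows, so the shares are not those of windows with like composition. CAGAC, the letters of the SMAD box that TGFβ signalling uses, occurred in 6 of the 9 windows and in 49.6% of all windows.

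One stretch per gene is printed, around the ACGTG nearest the start, to show the letters a HIF could read there. Each is given 5′ to 3′ on the gene's strand, with the core in capitals, as ACGTG or as its reverse complement CACGT. The window of *Adm* holds GCGTG alone, and its nearest match is shown, read on the other strand as CACGC. Positions count from 0 at the start base to the first letter of the core.
Hif1a, plus strand, chr12:73907785-73907813, core at -70: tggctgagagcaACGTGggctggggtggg
Vegfa, second window, inside the gene, minus strand, chr17:46025358-46025386, core at -211: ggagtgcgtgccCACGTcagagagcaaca
Adm, plus strand, chr7:110627591-110627619, core at -54: ggcaaatctgacCACGCccaccgtccgcc
Egln1, minus strand, chr8:124949306-124949334, core at -68: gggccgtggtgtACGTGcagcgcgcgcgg
Egln3, minus strand, chr12:54204087-54204115, core at -229: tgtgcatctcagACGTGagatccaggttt
Bnip3, minus strand, chr7:138909597-138909625, core at -107: cgcacgcgccgcACGTGccacacgctccc
Ankrd37, minus strand, chr8:45999840-45999868, core at -6: cagtgtttgggtACGTGaggccgcagcgg
Ddit4, minus strand, chr10:59951941-59951969, core at -187: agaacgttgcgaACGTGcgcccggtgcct
The *Bnip3* window was the densest, with 5 core matches, of which 2 are the palindrome CACGTG read on each strand, followed by *Ankrd37* with 4. *Hif1a* also holds the palindrome, within its 3 matches. A match of letters is no evidence of binding, which was not measured here, and its bearing on the responses below was not tested.

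All 10 genes passed the filter on low counts. The scaling to CPM used edgeR's TMM factors, and a gene was called changed at an adjusted p under 0.05 in edgeR's quasi-likelihood test, adjusted over the 14334 genes tested. Of the 10 genes 5 were called, 3 higher and 2 lower with TGFβ, where 40.7% of all genes tested were called, 20.5% higher and 20.1% lower. The CPM of the groups did not overlap for 6 of the 10, against 53.3% of all genes tested. With the letter as a block 8 of the 10 were called, *Hif1a* and *Egln3* lower and *Egln1* higher in addition, where 52.3% of all genes tested were called. As this contrast chose the genes, nothing is read from these counts. The median log2 fold change of TGFβ over vehicle was 0.07 for the 10 genes and -0.0013 for all genes tested. The samples are bulk RNA, so fewer cells that express a gene and less of its RNA per cell cannot be told apart.

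**Figure D1:**
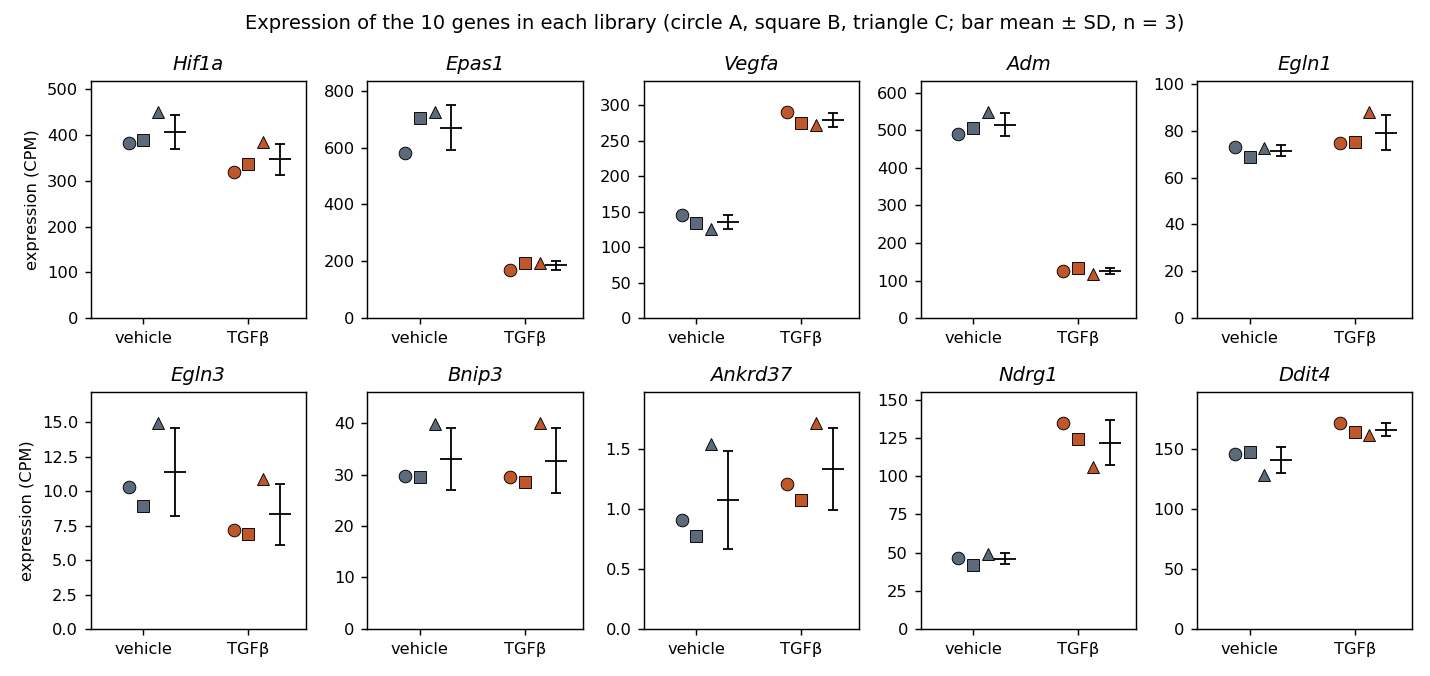
Expression of the 10 genes in CPM (linear axes from 0, a scale for each gene) in each library, with circles for library A, squares for B and triangles for C, and bars for the mean ± SD of 3 libraries. The groups stand apart for *Epas1*, *Vegfa*, *Adm*, *Egln1*, *Ndrg1* and *Ddit4*, and library C is the highest of both groups for *Hif1a*, *Egln3*, *Bnip3* and *Ankrd37*.

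*Epas1*, which encodes HIF-2α (GRCm38 chr17:86753700-86833410, plus strand), fell more than the other HIF alpha subunit described here. It stood at 582, 704 and 725 CPM in vehicle A, B and C and at 168, 195 and 195 CPM in TGFβ A, B and C. Every TGFβ library lay far below every vehicle library. The level was 3.61-fold lower with TGFβ, a log2 fold change of -1.85 ± 0.10 (SE).

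*Hif1a*, the subunit of HIF-1 (chr12:73901375-73947530, plus strand), moved far less. Its level was 383, 389 and 450 CPM in vehicle A, B and C and 320, 336 and 385 CPM in TGFβ A, B and C. TGFβ C lay above vehicle A, so the groups overlapped, and the log2 fold change of -0.23 ± 0.09 was not called. Within each letter the TGFβ library was the lower, and *Hif1a* was called at -0.23 with the letter as a block and at -0.24 with libraries C of both groups left out. Both settings were chosen after seeing the data and take out the spread that library C brings, so nothing is read from these calls.

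The balance of the HIF alpha transcripts turned over. Per length, in RPKM (CPM per kilobase of the gene's merged exons), *Epas1* over *Hif1a* was 1.60, 1.91 and 1.70 in vehicle A, B and C and 0.553, 0.610 and 0.533 in TGFβ A, B and C. The *Epas1* transcript was thus the more abundant in every vehicle library and the less abundant in every TGFβ library. Their sum went from 189 ± 18.7 RPKM to 92.1 ± 7.90 RPKM (mean ± SD, n = 3).

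*Epas1* is also known for its expression in endothelium, so endothelial markers are given beside it. Their summed level was 496, 565 and 774 CPM in vehicle A, B and C and 449, 502 and 630 CPM in TGFβ A, B and C, and the groups overlapped. In edgeR none of the 10 markers was called, none had an unadjusted p under 0.05, and neither DESeq2 nor limma-voom called any. Within each letter the sum was lower with TGFβ, and with the letter as a block 8 of the 10 were called, 7 lower and 1 higher. Without libraries C, 5 of them were called, all lower. Of all genes tested, 52.3% were called with the letter as a block and 37.2% without libraries C. The log2 fold change of *Epas1* was -1.83 without libraries C, and the part of endothelial RNA in it was not tested.

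The rest of the oxygen-sensing machinery moved by small amounts. Of its 12 further genes 10 were tested and 6 called, 4 higher and 2 lower, where 40.7% of all genes tested were called. The count was 4 with DESeq2 and without the filter on low counts, and 4 to 5 with single libraries left out. Without libraries C it was 4, where 37.2% of all genes tested were called. With the letter as a block it was 8, where 52.3% were called. The median log2 fold change was 0.05 against -0.0013 for all genes tested. *Arnt*, the shared dimer partner, fell by 0.22 ± 0.04 on the log2 scale (adjusted p = 0.00532, edgeR). *Vhl*, the substrate receptor of the ligase, rose by 0.27 ± 0.07 (adjusted p = 0.017, edgeR), a call lost without vehicle B. Its cofactors *Eloc* and *Elob* rose by 0.33 ± 0.06 and 0.18 ± 0.04 (adjusted p = 0.00255 and 0.00939, edgeR). *Hif1an*, which encodes the asparaginyl hydroxylase that limits HIF transactivation, was at -0.02 ± 0.05 (adjusted p = 0.78, edgeR). *Hif3a* and *Cited4* were too low to test.

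*Egln1* encodes PHD2, the main HIF prolyl hydroxylase (chr8:124908587-124949324, minus strand). It measured 73.2, 68.7 and 72.5 CPM in vehicle A, B and C and 74.65, 74.99 and 88.0 CPM in TGFβ A, B and C. The TGFβ libraries were all above the vehicle libraries, but by little in A and B. The log2 fold change of 0.15 ± 0.07 was not called, and was called at 0.15 with the letter as a block.

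*Egln3* encodes PHD3, the hydroxylase most often induced through HIF (chr12:54178981-54203860, minus strand). It measured 10.3, 8.93 and 15.0 CPM in vehicle A, B and C and 7.20, 6.91 and 10.9 CPM in TGFβ A, B and C. Library C stood above the others in each group and TGFβ C lay above vehicle A. The log2 fold change of -0.45 ± 0.23 was not called with all libraries. Within each letter the TGFβ library was the lower, and *Egln3* was called at -0.45 with the letter as a block and also without libraries C. As for *Hif1a*, these settings take out the spread of library C, and nothing is read from the calls.

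Per length, *Egln1* made 44.2 ± 1.24% of the summed transcripts of *Egln1*, *Egln2* and *Egln3* with vehicle and 49.9 ± 1.96% with TGFβ, with no overlap of the groups. The shares of *Egln2* (46.4 ± 1.48% and 43.0 ± 3.31%) and *Egln3* (9.45 ± 2.23% and 7.05 ± 1.42%) overlapped between groups. *Egln2*, the paralog not known as a hypoxia target, was at -0.14 ± 0.05 on the log2 scale (adjusted p = 0.0484, edgeR), a call that was lost with DESeq2, without the filter on low counts and without any library but TGFβ B.

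*Adm*, the gene of the vasodilator peptide adrenomedullin (chr7:110627661-110629820, plus strand), fell the most of the 10. It measured 489, 505 and 548 CPM in vehicle A, B and C and 125, 133 and 117 CPM in TGFβ A, B and C. No TGFβ library came near a vehicle library, and the level was 4.12-fold lower, a log2 fold change of -2.04 ± 0.07. Leaving out any library kept it between -2.09 and -1.99.

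The list of adrenomedullin receptor genes also holds the related peptide gene *Adm2*. All 5 of its tested genes were called, where 40.7% of all genes tested were called. *Calcrl*, *Ramp2* and *Ackr3* were the 3 lower, and *Ramp1* and *Adm2* the 2 higher. *Calcrl*, the receptor that binds adrenomedullin, fell by 0.64 ± 0.13 on the log2 scale, and *Ramp2*, the coreceptor that makes it an adrenomedullin receptor, by 0.93 ± 0.17 (adjusted p = 0.0053 and 0.00376, edgeR). Of the 75-base windows of *Ramp2* 73.3% also occur in transcripts of other genes, mostly *Vps25*, so its counts are uncertain. *Ramp1*, which turns the same receptor towards calcitonin gene-related peptide, rose by 0.69 ± 0.18 from 1.64 ± 0.243 CPM (adjusted p = 0.0182, edgeR), and *Ackr3*, a scavenger of adrenomedullin, fell by 0.76 ± 0.24 (adjusted p = 0.0395, edgeR). *Ramp3* was too low to test. The calls of *Ramp1* and *Ackr3* were each lost when single libraries were left out, *Ramp1* without vehicle B or C or TGFβ B or C and *Ackr3* without any library but TGFβ C. The call of *Ackr3* was also lost with DESeq2.

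*Adm2*, the related peptide intermedin, rose by 1.73 ± 0.12 on the log2 scale, from 3.11 ± 0.0964 CPM to 10.3 ± 1.45 CPM (adjusted p = 4.83e-05, edgeR). Per length, *Adm* was 133 ± 6.97 times *Adm2* with vehicle and 9.87 ± 1.73 times with TGFβ.

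*Vegfa*, the chief angiogenic ligand of the VEGF family (chr17:46016993-46032369, minus strand), moved the other way. It measured 145, 135 and 126 CPM in vehicle A, B and C and 291, 275 and 273 CPM in TGFβ A, B and C. Each TGFβ library was above each vehicle library, and the level was 2.06-fold higher, a log2 fold change of 1.04 ± 0.06.

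No other VEGF ligand was called higher. Of 9 further ligands and receptors 4 were called, all lower, where 40.7% of all genes tested were called. Their median log2 fold change was -0.36. *Vegfd*, a lymphangiogenic ligand, fell by 1.87 ± 0.13 on the log2 scale from 363 ± 26.5 CPM to 99.5 ± 17.5 CPM (adjusted p = 3.69e-05, edgeR). *Vegfc* fell by 1.02 ± 0.11 and *Vegfb* by 0.65 ± 0.07 (adjusted p = 0.000363 and 0.000416, edgeR). *Nrp1*, a VEGF coreceptor, fell by 0.60 ± 0.07 (adjusted p = 0.000441, edgeR). The receptor genes *Kdr* and *Flt1* had log2 fold changes of -0.36 ± 0.22 and -0.18 ± 0.22 (adjusted p = 0.231 and 0.543, edgeR), and that of *Flt1* was 0.03 without vehicle C. With the letter as a block the list had 7 calls, all lower, where 52.3% of all genes tested were called. *Kdr* and *Flt1* were among the 7, at -0.35 and -0.18. *Kdr* is also among the endothelial markers counted above, and the part of endothelial RNA in these levels was not tested. At an unadjusted p under 0.05 the count of the list was also 4, as it was with DESeq2 and with limma-voom.

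The summed ligand transcripts went from 251 ± 4.42 RPKM to 149 ± 3.01 RPKM, with no overlap, while *Vegfa* went from 12.6 ± 0.687% to 43.8 ± 0.980% of them. *Vegfd* went from 60.2 ± 3.36% to 27.7 ± 4.40%. *Vegfd* was the most abundant VEGF ligand transcript in every vehicle library and *Vegfa* in every TGFβ library.

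**Figure D2:**
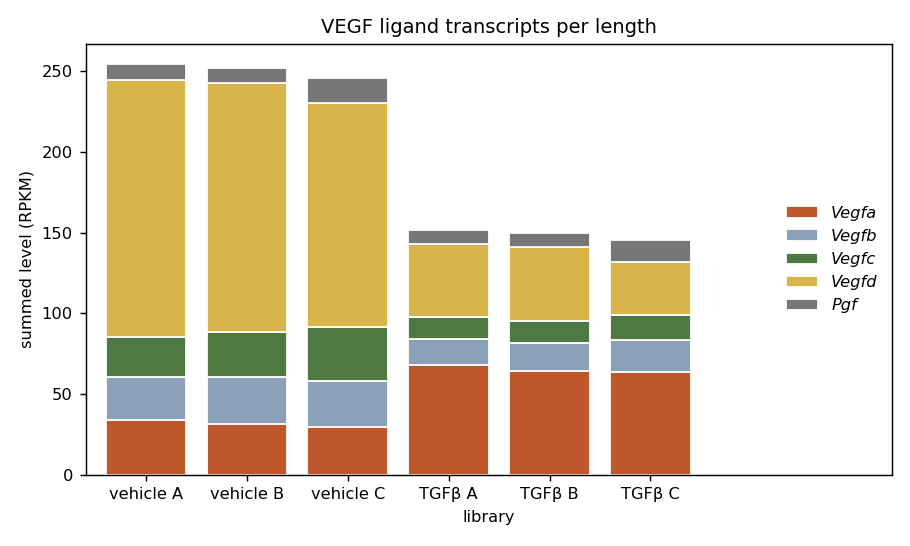
Summed level of the VEGF ligand transcripts in each library, in RPKM on a linear axis from 0, split by gene. With TGFβ the stacks are lower and the *Vegfa* part is taller in each of the 3 libraries, from a mean of 12.6% of the sum to 43.8%, while the *Vegfd* part is shorter.

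*Bnip3*, a mitochondrial outer membrane protein that recruits the mitophagy machinery (chr7:138890836-138909519, minus strand), had like levels in both groups. It measured 29.7, 29.4 and 39.9 CPM in vehicle A, B and C and 29.6, 28.5 and 40.1 CPM in TGFβ A, B and C. The same order of libraries stood in each group, with C above the other two, and the log2 fold change was -0.01 ± 0.16. Of its 75-base windows 15.3% also occur in transcripts of other genes, mostly *Gm16439*, so some of its counts are uncertain.

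*Bnip3l*, its closest paralog, fell by 0.27 ± 0.04 on the log2 scale (adjusted p = 0.00184, edgeR), while the ratio of *Bnip3* to *Bnip3l* per length overlapped between groups (0.572 ± 0.0939 and 0.682 ± 0.117). Its windows are shared at 18.7%, mostly with *Bnip3l-ps*. Of 14 further mitophagy genes 7 were called, 5 lower and 2 higher, where 40.7% of all genes tested were called. Their median log2 fold change was -0.09. *Pink1*, a kinase that marks damaged mitochondria, fell by 0.48 ± 0.06, and *Optn*, an adaptor that links them to the autophagosome, by 0.38 ± 0.08 (adjusted p = 0.000628 and 0.00639, edgeR). The autophagosome genes *Gabarapl1* and *Map1lc3b* fell by 0.31 ± 0.06 and 0.28 ± 0.04 (adjusted p = 0.00428 and 0.00192, edgeR).

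*Ankrd37*, an ankyrin repeat gene used as a hypoxia marker (chr8:45996902-46005707, minus strand), was the lowest of the 10, with 29, 23 and 46 counts in vehicle A, B and C and 33, 30 and 49 in TGFβ A, B and C. That is 0.91, 0.78 and 1.54 CPM and 1.21, 1.07 and 1.72 CPM, with C highest in each group. The groups overlapped, and the log2 fold change of 0.31 ± 0.31 was not called. It overlaps *Ufsp2* by 57 bases and *Lrp2bp* by 6405 bases, both on the other strand. *Ufsp2* had 7317 counts and *Lrp2bp* 79, against 210 for *Ankrd37*. The strand setting of the counting is not given in the sources used here, so its counts are uncertain.

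*Ndrg1*, a stress-responsive gene linked to growth arrest and differentiation (chr15:66929318-66969640, minus strand), had the largest rise of the 10. It measured 46.7, 42.1 and 49.0 CPM in vehicle A, B and C and 135, 125 and 106 CPM in TGFβ A, B and C. The lowest TGFβ library was above every vehicle library, and the level was 2.66-fold higher, a log2 fold change of 1.41 ± 0.09. The other family members moved less, *Ndrg4* by 0.25 ± 0.06, *Ndrg2* by 0.16 ± 0.04 and *Ndrg3* by -0.21 ± 0.06 (adjusted p = 0.0129, 0.0168 and 0.0239, edgeR), and 1 of these 3 genes was called without vehicle C or without TGFβ B. Per length, *Ndrg1* went from 11.1 ± 0.991% to 23.0 ± 2.35% of the family's transcripts.

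*Ddit4* encodes REDD1, an inhibitor of mTORC1 that is induced by hypoxia, glucocorticoids and the integrated stress response (chr10:59949669-59951834, minus strand). It measured 146, 148 and 128 CPM in vehicle A, B and C and 172, 164 and 162 CPM in TGFβ A, B and C. The groups did not overlap, but the level was only 1.18-fold higher, a log2 fold change of 0.24 ± 0.06. Without TGFβ A it was 0.21 and no longer called.

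Genes around *Ddit4* are given by the pathways that are known to use or induce it. Of 13 mTORC1 genes 4 were called, 3 lower and 1 higher, with a median of 0.02, and 7 with the letter as a block, 4 lower and 3 higher. For this list and the following ones, the share called over all genes tested was 40.7%, and 52.3% with the letter as a block. *Rheb*, the GTPase that activates mTORC1, rose by 0.55 ± 0.05 on the log2 scale (adjusted p = 9.71e-05, edgeR). *Sesn1*, *Txnip* and *Tsc1* fell by 0.58 ± 0.08, 0.39 ± 0.04 and 0.21 ± 0.05 (adjusted p = 0.0013, 0.000173 and 0.00733, edgeR). Of 8 genes of the integrated stress response 4 were called, all higher, and with the letter as a block 2 more were called, both lower. The 4 were *Chac1* at 0.79 ± 0.12, *Asns* at 0.58 ± 0.06, *Trib3* at 0.27 ± 0.05 and *Atf4* at 0.23 ± 0.05 (adjusted p = 0.00166, 0.000197, 0.00408 and 0.00558, edgeR). *Ddit3* was at -0.13 ± 0.06 and not called. Of the 8 tested genes of the glucocorticoid list, which holds the receptor gene *Nr3c1* beside targets, 6 were called, 2 higher and 4 lower. *Nr3c1* was among the lower, at -0.40 ± 0.06 (adjusted p = 0.00172, edgeR). The metallothionein genes *Mt2* and *Mt1* fell by 0.86 ± 0.27 and 0.58 ± 0.16 and *Klf9* by 0.55 ± 0.03, while *Fkbp5* rose by 0.54 ± 0.07 (adjusted p = 0.0336, 0.0201, 2.76e-05 and 0.000914, edgeR). The calls of *Mt1* and *Mt2* were lost without vehicle C, TGFβ A or TGFβ B, and that of *Mt2* also without vehicle B and with DESeq2.

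**Figure D3:**
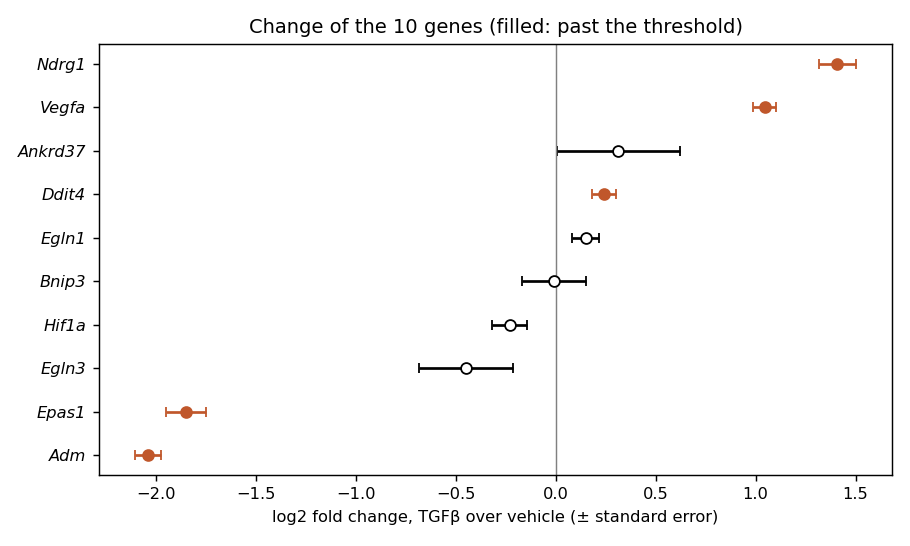
Log2 fold change of TGFβ over vehicle of the 10 genes with its standard error, from edgeR on 3 libraries per group. *Adm* and *Epas1* are at -2.04 and -1.85, *Ndrg1* and *Vegfa* at 1.41 and 1.04, and the other 6 lie between -0.45 and 0.31.

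Known HIF targets beyond the 10 genes were counted from lists. Of 29 tested non-glycolytic targets 18 were called, 8 higher and 10 lower, where 40.7% of all genes tested were called. Their median log2 fold change was -0.05. *Selenbp1*, a selenium-binding protein gene, fell by 2.40 ± 0.15 on the log2 scale, *Zfp395* by 1.17 ± 0.25 and *Angptl4*, an inhibitor of lipoprotein lipase, by 0.96 ± 0.15 (adjusted p = 2.67e-05, 0.00726 and 0.00154, edgeR). Of the windows of *Selenbp1* 34.7% are shared, mostly with *Selenbp2*. *Bhlhe41*, a transcriptional repressor of the clock, rose by 1.22 ± 0.07 (adjusted p = 1.36e-05, edgeR). *Car9*, often used as a marker of hypoxia, was too low to test, with 0.197 ± 0.0683 CPM in the vehicle group and 0.298 ± 0.141 CPM in the TGFβ group.

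Of 21 glycolytic HIF targets 12 were called, all higher, with a median of 0.27. Of all genes tested 40.7% were called, 20.5% higher. DESeq2 and limma-voom also called 12 of the list. Without libraries C 13 were called, 11 higher and 2 lower, where 37.2% of all genes tested were called. With the letter as a block 15 were called, 13 higher and 2 lower, where 52.3% of all genes tested were called. *Slc16a3*, the lactate exporter, rose by 1.24 ± 0.25 on the log2 scale, *Hk2* by 0.63 ± 0.13, *Slc2a1*, the glucose transporter, by 0.53 ± 0.12 and *Pgam1* by 0.51 ± 0.07 (adjusted p = 0.00585, 0.00598, 0.0113 and 0.000873, edgeR). Of the windows of *Pgam1* 40.6% are shared, mostly with *Pgam1-ps2*. Among the other called genes *Pgk1* shares 67.5% of its windows, *Eno1* 65.4%, *Gapdh* 22.8% and *Pkm* 19.6%, so their counts are uncertain too. Sharing was measured on the longest transcript of each gene (3289 bases for *Gapdh*), and other transcripts may share more or less. *Gapdh* stood at only 24.8 ± 1.03 CPM with vehicle, beside 977 ± 35.3 CPM for *Pkm*. The glycolytic and non-glycolytic lists were not tested against each other or against other genes.

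**Figure D4:**
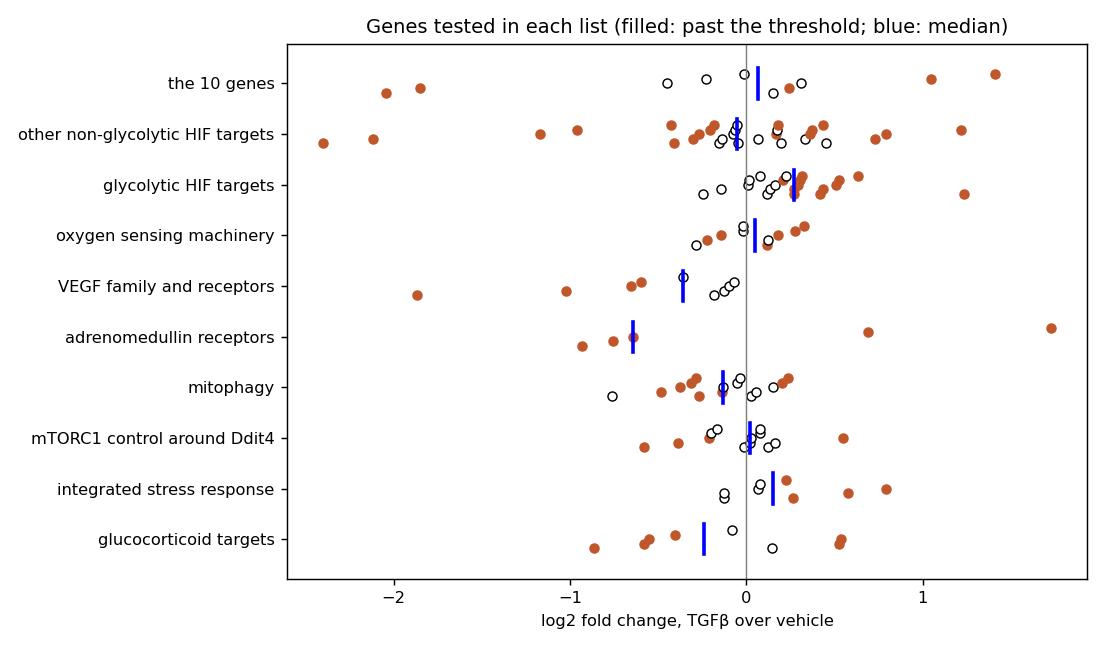
Log2 fold change of TGFβ over vehicle of each tested gene in 10 lists, with filled points for genes past the threshold of an adjusted p under 0.05 in edgeR and a blue line for the list's median. The called glycolytic targets all lie right of 0, those of the VEGF list all lie left of it, and the other non-glycolytic targets lie on both sides of a median of -0.05.

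Ordered per length, the 10 genes changed places. With vehicle the order of mean RPKM was *Adm* at 318, *Epas1* at 119.9, *Ddit4* at 80.2, *Hif1a* at 69.1, *Vegfa* at 31.6, *Egln1* at 19.9, *Bnip3* at 14.6, *Ndrg1* at 6.96, *Egln3* at 4.28 and *Ankrd37* at 0.699. *Ddit4* and *Hif1a* were the only neighbours in that order whose libraries overlapped. With TGFβ the order was *Ddit4* at 94.7, *Adm* at 77.1, *Vegfa* at 65.2, *Hif1a* at 58.9, *Epas1* at 33.2, *Egln1* at 22.0, *Ndrg1* at 18.5, *Bnip3* at 14.5, *Egln3* at 3.13 and *Ankrd37* at 0.866. There *Vegfa* overlapped *Hif1a*, and *Ndrg1* overlapped *Bnip3*. Merged exons stand for the length, so a gene that uses short isoforms is set too low.

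Within the groups, library C stood apart for some of the 10 genes. Library C was the highest of its group under both treatments for *Hif1a*, *Egln3*, *Bnip3* and *Ankrd37*, 4 of the 10, against 19.5% of all genes tested. It was the lowest under both for *Vegfa* and *Ddit4*, 20% of the 10 genes. That equals the 20.0% of all genes tested, so nothing is read from it. *Egln3* in C was 1.56 times the mean of A and B with vehicle and 1.54 times with TGFβ. For *Bnip3* the ratios were 1.35 and 1.38, for *Ankrd37* 1.83 and 1.51, and for *Hif1a* 1.17 and 1.17. On the log2 scale these steps were 0.65 and 0.62 for *Egln3*, 0.43 and 0.46 for *Bnip3* and 0.88 and 0.59 for *Ankrd37*. All were larger in size than the TGFβ differences of these genes, -0.45, -0.01 and 0.31. For *Hif1a* the steps were 0.22 and 0.23, beside a TGFβ difference of -0.23.

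The same libraries stood highest for 16 of the 29 other non-glycolytic targets and 13 of the 21 glycolytic ones, and for none of the 10 oxygen-sensing genes. They also stood highest for 9 of the 10 endothelial markers, 7 of the 8 tested leukocyte markers and 5 of the 7 tested pericyte markers. Leukocyte markers summed to 260, 274 and 373 CPM in vehicle A, B and C and to 224, 242 and 334 CPM in TGFβ A, B and C. The part of these cell types, of culture or of library preparation in the levels of *Hif1a*, *Egln3*, *Bnip3* and *Ankrd37* was not tested. Without libraries C the number of the 10 genes called was 7, with *Hif1a* and *Egln3* added as lower, where 37.2% of all genes tested were called.

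**Figure D5:**
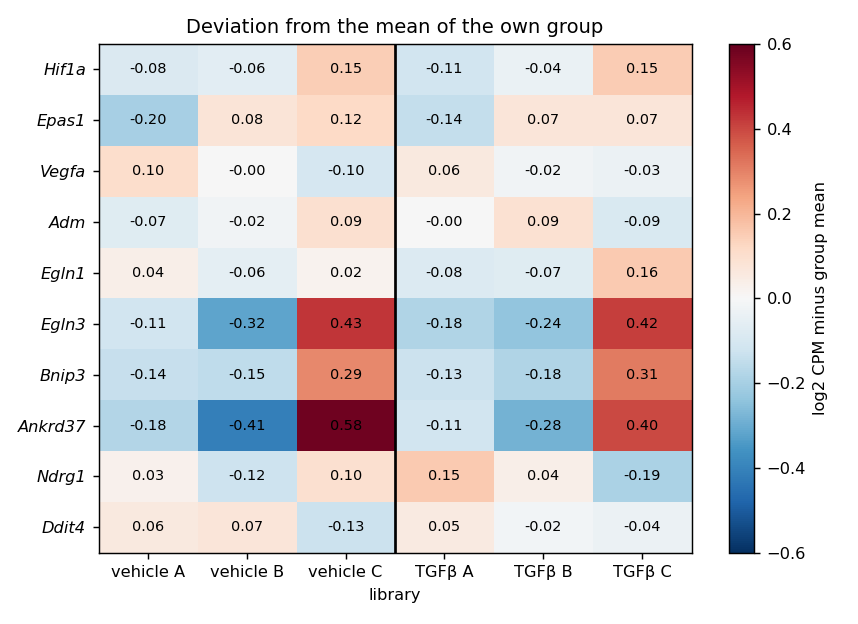
Log2 CPM of each of the 10 genes in each library minus the mean of its own group, by colour and number, with vehicle libraries on the left and TGFβ libraries on the right. *Egln3*, *Bnip3* and *Ankrd37* are low in A and B and high in C under both treatments, and *Vegfa* and *Ddit4* are lowest in C under both. Over all genes tested, library C is highest under both for 19.5% and lowest under both for 20.0%.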

How the data were processed

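By the study's methods and labels, stranded poly(A) RNA libraries were read from a single end to 75 bases, mapped on mm10 and compared with DESeq2. The aligner, the counter, the annotation and the strand setting are not given in the sources used here. The deposited table holds raw counts, whole numbers for every gene in every library. It also holds the authors' mean of counts over DESeq2 size factors, a normalized signal, which size factors computed here gave back in 100% of genes (within 0.006 or 0.02%). The table's fold changes and p-values from the authors' own comparison were not used. Its gene identifiers matched GENCODE M21 of GRCm38 in 25086 of 25140 cases, which gave positions and exon lengths.

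Low genes were dropped with filterByExpr, libraries were scaled with TMM factors, and TGFβ was tested against vehicle by quasi-likelihood in edgeR 4.0.16 (R 4.3.3), adjusted by Benjamini and Hochberg. The standard error is the log2 fold change over the root of the F statistic. The biological coefficient of variation was 7.97%, and counting error is of like size or larger for *Egln3* and *Ankrd37*. The steps were tested on simulated counts. The 10 genes and all lists were chosen with earlier results of these data known. Of each list the text names up to 4 called genes with the largest change and a mean of at least 1 CPM, and direct partners of the 10 genes. Beside this, *Car9*, *Hif3a*, *Cited4*, *Ramp3*, *Ddit3*, *Nr3c1*, *Tcf21* and *Cd3e* were named after their values were seen. *Pgk1*, *Eno1*, *Gapdh* and *Pkm* were named for their shared windows. Of the pericyte markers 2 of 7 tested were called, *Cspg4* higher and *Notch3* lower, where 40.7% of all genes tested were called. Motifs were searched in RefSeq windows. Alternatives were DESeq2 1.42.0, limma-voom (limma 3.58.1), other size factors and filters, leaving out single libraries, a threshold of 0.01, and, chosen after seeing the data, both libraries C left out and the letter of the library as a block.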

Additional observations from a re-analysis of the deposited data

How the results depend on the processing

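The number of the 10 genes called was 5 under most alternatives, 6 with DESeq2 (*Hif1a* added), 4 without TGFβ A and at an adjusted p of 0.01, and 7 without TGFβ C. Over all genes 5828 were called in the main fit, 5020 with DESeq2 and 4674 without TGFβ A. At an adjusted p of 0.01 they numbered 3595, and without TGFβ C 5481. Without TGFβ C *Hif1a* was at -0.32 and *Egln3* at -0.70 on the log2 scale, both called. With single libraries left out *Bnip3* ranged from -0.19 to 0.15, above 0 without vehicle C (0.15), TGFβ A (0.06) or TGFβ B (0.08). In the same way *Hif1an* ranged from -0.046 to 0.013, above 0 without TGFβ C, and was 0.032 without both libraries C. *Flt1* ranged from -0.41 to 0.034, above 0 without vehicle C, and *Nrp2* from -0.19 to 0.0037, above 0 without vehicle B. *Epas1*, *Adm*, *Vegfa* and *Ndrg1* kept direction and call under every alternative run. The alternatives reuse the same libraries and the genes were picked with this contrast known, so nothing is read from that. At an adjusted p of 0.01 the number of genes changed was 3595, with 1855 higher and 1740 lower, against 5828. With single libraries left out, the called genes of the adrenomedullin receptor list numbered 3 to 4 and the NDRG genes 1 to 3. Of 68 named genes, 49 kept direction and side of the threshold under all alternatives, 16 lost or gained a call and 4 turned in sign, *Flt1* among both. The cause was not tested. No scaling moved the median log2 fold change of all genes by more than 0.021. No paired analysis was possible because the table's columns carry no replicate number, if pairs are to come from the labels. Deviations from the group means correlated between columns of the same letter (r = 0.511, 0.551 and 0.622 for A, B and C over 10373 genes, which are not independent), a hint from the data. With the letter as a replicate block, added after seeing the data, 7497 genes were called, 3727 higher and 3770 lower. Of the 10 genes 8 were called, of the VEGF list 7 and of the mTORC1 list 7. The cause of the gains was not tested.

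HIF protein, oxygen and promoter binding were not measured, and 1 time point and dose were taken. Without the block the standard errors of *Egln3*, *Bnip3* and *Ankrd37* were 0.16 to 0.31 on the log2 scale, and changes of that size were not detectable. Reads of *Ankrd37*, *Bnip3*, *Bnip3l*, *Elob*, *Ramp2*, *Pgam1*, *Pgk1*, *Eno1*, *Gapdh*, *Pkm* and *Selenbp1* may be shared with other genes.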

Other observations

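The genes that stood highest in library C of both groups, relative to the mean of A and B and within the 10373 genes whose mean was 5 CPM or more, were led by *Rspo3*, an activator of Wnt signalling, at 3.13 times with vehicle and 3.19 times with TGFβ. They were chosen after their values were seen. *Stc1* and *Ndufa4l2*, both known as hypoxia-induced genes, were the second and the fifth, with *Stc1* at 2.22 and 2.26 times and *Ndufa4l2* at 2.07 and 2.65 times. *Hp*, an acute phase gene, was at 2.18 and 2.75 times, and *Dll4*, a Notch ligand of endothelium, at 2.08 and 2.13 times. *Slc16a3* ranked 47, *Cxcr4* 64, *Egln3* 70, *Bnip3* 166, *Pdk1* 170 and *Hif1a* 440 in that order. Further down it stood *Epas1* at 1001, *Egln1* at 2173, *Adm* at 7868, *Vegfa* at 8204, *Ddit4* at 8962 and *Ndrg1* at 9720. The listed targets *Plod2*, *Ccng2* and *Stc2* ranked 8875, 8896 and 10106, near the end of the 10373. *Ankrd37* was below 5 CPM and not ranked. Of the 13 genes around mTORC1, 7 were lowest in library C of both groups.

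The tested genes next to the 10 genes on their chromosomes were counted as well. Of 20 such neighbours 9 were called, 5 higher and 4 lower, against 40.7% of all genes tested. *Wisp1* (*Ccn4*), a matricellular protein gene that lies 6117 bases from *Ndrg1*, rose by 2.34 ± 0.10 on the log2 scale (adjusted p = 7.81e-06, edgeR), and *Ampd3*, 138386 bases from *Adm*, fell by 0.86 ± 0.09 (adjusted p = 0.000317, edgeR). These were also chosen after their values were seen.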
